A study of Saccharomyces cerevisiae with 11 samples.

Results

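The genes described here are the 44 nuclear genes of *Saccharomyces cerevisiae* that encode the mitochondrial NADH dehydrogenases, the subunits of complexes II, III and IV, cytochrome c, the subunits of ATP synthase and the ATP synthase inhibitors, chosen by systematic name from a count table of 7126 genes. They comprise 3 NADH dehydrogenases, 4 genes of complex II, 9 of complex III, 2 of cytochrome c, 10 of complex IV, 14 of ATP synthase and 2 inhibitors, and all 44 were among the 6321 genes with enough counts to be tested. RNA was sequenced from W303 strains with an integrated GFP-tagged, nuclear-targeted fragment of huntingtin (Htt) under the *GAL* promoter, carrying the expanded glutamine tract Htt103Q (GAL-NLS-Htt103Q-GFP) or the short tract Htt25Q (GAL-NLS-Htt25Q-GFP), where the number counts the glutamines. Each strain also carried a low-copy (*CEN*, HIS) plasmid, either with *SLX5* (BOK372, [*SLX5*]) or empty (BOK333, [V]). All cultures grew at 25°C in synthetic medium with 2% raffinose to mid-log phase and then received 2% galactose for 4 h, so every group expressed an Htt fragment and no group lacked one. The groups were Htt103Q [V] (n = 3), Htt25Q [V] (n = 2), Htt103Q [*SLX5*] (n = 3) and Htt25Q [*SLX5*] (n = 3), 11 libraries in all. Their letters a, b and c mark the replicates of a group, which the paper describes as independent libraries and which are called clones here. Each Htt length was 1 integrant strain, so the Htt length and any other difference between these strains cannot be told apart.

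The respiratory chain passes electrons from NADH and succinate through coenzyme Q and cytochrome c to oxygen, and its proton gradient drives ATP synthase. Budding yeast has no proton-pumping complex I and uses single-polypeptide NADH dehydrogenases instead. Most of these nuclear genes are repressed while cells ferment glucose and are raised by the Hap2/3/4/5 complex when they respire. Several proteins of the chain have isoforms encoded by paired genes that differ in their use with oxygen or carbon source.

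The libraries held 19942070 to 29440801 estimated counts, and the 44 genes took 2.51% to 2.74% of each. Levels of one gene between libraries are given in CPM, counts scaled for library size. *SLX5*, a subunit of a SUMO-targeted ubiquitin ligase, stood at 493.5 to 752.3 CPM in Htt103Q cells with its plasmid, against 50.12 to 65.18 CPM in those with the vector. In Htt25Q cells it stood at 1147 to 1216 CPM with the plasmid, against 94.43 and 99.65 CPM with the vector. The libraries of clone letter a held 1.02% to 2.40% ribosomal RNA, the others 0.254% to 0.958%. The mean fragment length that RSEM, the authors' counting program, used was 193.2 to 197.9 bases in 5 of the 6 libraries of Htt103Q, and 187.6 bases in Htt103Q [V] clone a, against 186.7 to 189.3 bases in the 5 libraries of Htt25Q. One library stood apart in the *SLX5* comparison of Htt103Q cells: leaving out Htt103Q [V] clone c moved the count of genes called between Htt103Q [*SLX5*] and Htt103Q [V] to 1647, against 1 with it. In RNA of whole cultures, a lower level in every cell and a lower share of cells with the transcript cannot be told apart.

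TPM, the length-corrected unit deposited by the authors, allow levels of different genes to be compared. The most abundant of the 44 in Htt25Q [V] was *ATP19* at a mean of 6136 TPM, followed by *QCR6* at 4769.6, *CYC1* at 3822, *STF1* at 3388 and *COX9* at 3168 TPM. The least abundant were *COX5B* at 244, *ATP20* at 121 and *NDE2* at 39.6 TPM. *COX9* and *ATP18* encode transcripts of 180 bases, for which RSEM counted only 16.7 to 24.1 bases as able to start a fragment, so their TPM rest on few positions. Across libraries a member had at least 143 estimated counts, the lowest being *COX26*.

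Cells of the Htt103Q strain had lower transcripts for a part of the chain. Between Htt103Q [V] and Htt25Q [V], 24 of the 44 genes were lower and 0 were higher at an adjusted p under 0.05 in edgeR's quasi-likelihood test. That is 54.5% of the members, beside 29.5% of all genes tested called lower and 27.3% called higher. The other 20 did not pass, and the median log2 fold change was -0.28 over the members and -0.02 over all genes tested. In the cells with the *SLX5* plasmid, which share no library with the first comparison, 17 of 44 were lower (38.6%, beside 26.6% of all genes) and 3 were higher (6.82%, beside 26.9% of all genes), with medians of -0.13 and -0.01. All 17 were among the 24 genes lower with the empty vector (100% of the 17 and 70.8% of the 24), and 39 of the 44 had the same sign in both comparisons. The same shares were not counted over all genes. *NDE1*, *QCR8*, *QCR9*, *QCR10*, *CYC1*, *COX8* and *ATP15* passed the test with the vector alone. Averaged over both plasmids, 26 were lower (35.1% of all genes were) and 3 higher (33.3% of all genes were).

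**Figure D1:**
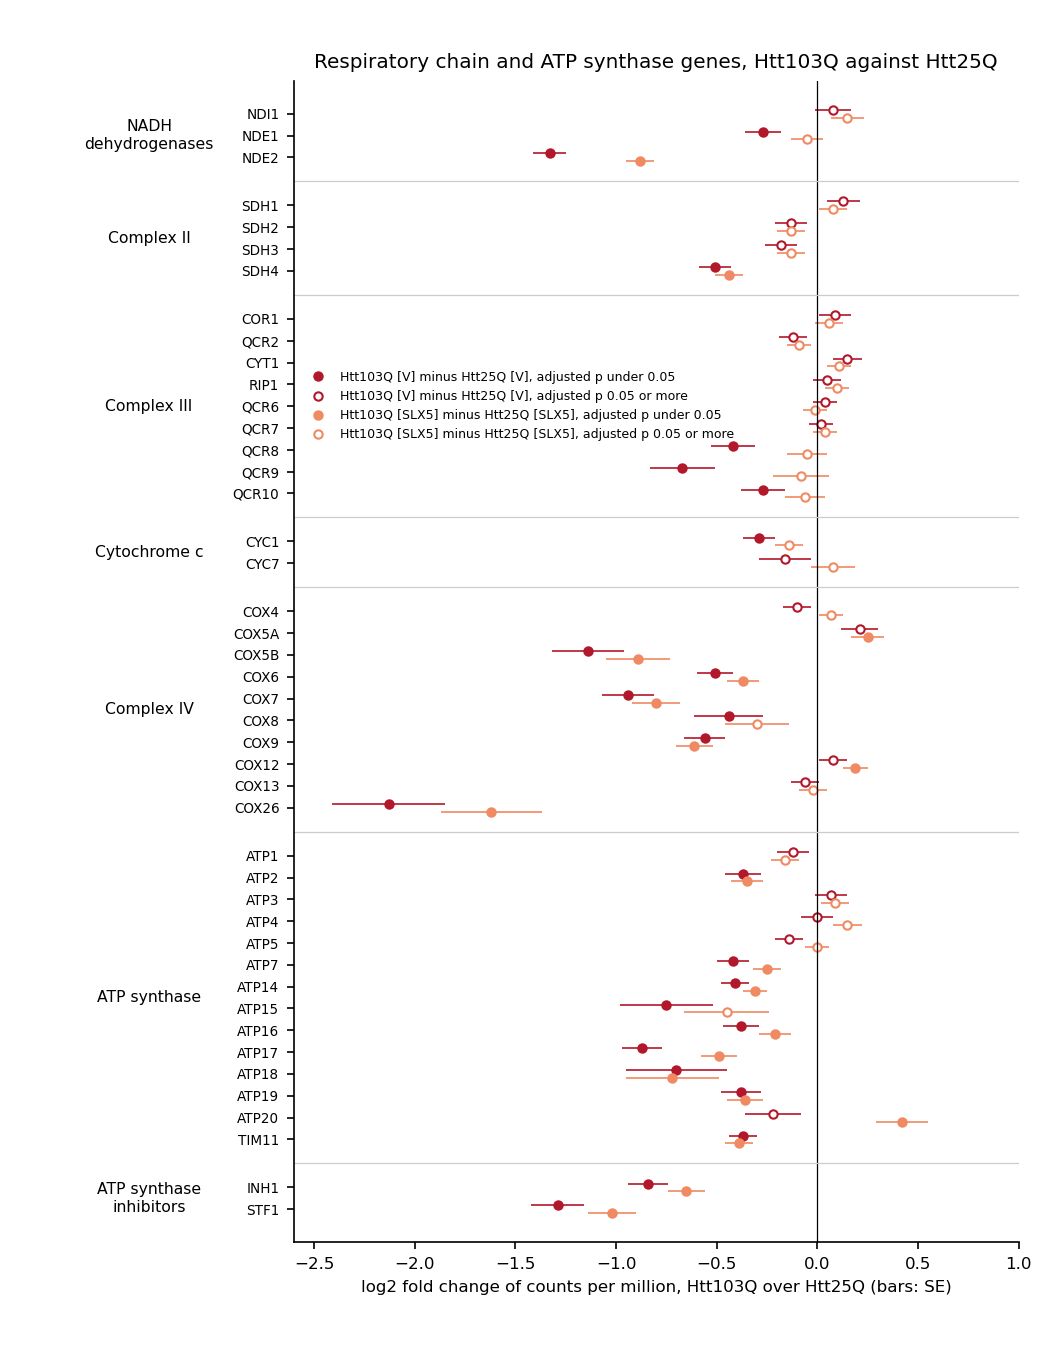
Log2 fold change of each of the 44 genes (x axis, Htt103Q over Htt25Q) by complex, with the empty vector (dark red) and with the SLX5 plasmid (orange). Bars are standard errors and filled points have an adjusted p under 0.05 (edgeR's quasi-likelihood test). COX26 lies farthest left at -2.13 and -1.62, the complex III genes lie near 0 except QCR8, QCR9 and QCR10 with the vector, and COX5A, COX12 and ATP20 lie right of 0 and filled with the SLX5 plasmid.

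The counts of lower genes varied between the complexes. Of all genes tested, 29.5% were lower with the vector, and 26.6% were lower and 26.9% higher with the plasmid. With the vector, 2 of 3 NADH dehydrogenases, 1 of 4 genes of complex II, 3 of 9 of complex III, 1 of 2 of cytochrome c, 6 of 10 of complex IV, 9 of 14 of ATP synthase and 2 of 2 inhibitors were lower. The median log2 fold changes were -0.27, -0.16, 0.02, -0.22, -0.47, -0.37 and -1.06 in the same order of complexes. With the *SLX5* plasmid, 1 of 3, 1 of 4, 0 of 9, 0 of 2, 5 of 10, 8 of 14 and 2 of 2 were lower, while 2 genes of complex IV and 1 of ATP synthase were higher. In complexes II and III, within either plasmid, no gene of a catalytic or core subunit passed the test, and the lower calls fell on the membrane anchor *SDH4* and on small subunits. Averaged over both plasmids, 3 of 4 genes of complex II were lower, the iron-sulfur subunit gene *SDH2* among them. In complex III 2 of 9 were then lower and 1 was higher, beside 35.1% and 33.3% of all genes. A difference between complexes was not tested.

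The NADH dehydrogenases feed electrons from NADH to coenzyme Q. *NDE2* (YDL085W) encodes the minor of the external enzymes, which face the intermembrane space, and it fell more than any other member over 600 bases. It had 40.8, 35.3 and 41.9 CPM in Htt103Q [V], against 98.6 and 99.1 CPM in Htt25Q [V], and 50.7, 51.3 and 51.5 CPM in Htt103Q [*SLX5*], against 98.1, 93.1 and 91.8 CPM in Htt25Q [*SLX5*]. Every Htt103Q library lay below every Htt25Q library. The log2 fold change was -1.33 ± 0.08 (SE; adjusted p = 2.22e-06) with the vector and -0.88 ± 0.07 (adjusted p = 8.24e-06) with the plasmid. *NDE1* (YMR145C), the major external enzyme, had 915, 946 and 1081 CPM in Htt103Q [V], against 1249.8 and 1121.5 CPM in Htt25Q [V], a log2 fold change of -0.27 ± 0.09 (adjusted p = 0.0262) that was lost without Htt25Q [V] clone a (adjusted p = 0.206), Htt103Q [V] clone a (0.0824) or Htt103Q [V] clone b (0.0856), and in a fit of only the groups compared (0.0738). With the *SLX5* plasmid its groups overlapped, at 998, 1116 and 967 CPM in Htt103Q against 1034, 1037 and 1122 CPM in Htt25Q (log2 fold change -0.05, adjusted p = 0.626). *NDI1* (YML120C), the internal enzyme of the matrix side, had 1469.5, 1490.5 and 1696 CPM in Htt103Q [V], against 1545 and 1398.5 CPM in Htt25Q [V] (log2 fold change 0.08, adjusted p = 0.484).

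The promoters of the external enzymes are shown because *NDE2* and *NDE1* differed in response. The windows run from 250 to 101 bases before the start codon, 5′ to 3′ on the gene's strand, in the RefSeq R64 assembly at chrIV:302961-303110 (plus strand, *NDE2*) and chrXIII:556576-556725 (minus strand, *NDE1*). Capitals mark CCAAT or CCCCT on either strand.
NDE2: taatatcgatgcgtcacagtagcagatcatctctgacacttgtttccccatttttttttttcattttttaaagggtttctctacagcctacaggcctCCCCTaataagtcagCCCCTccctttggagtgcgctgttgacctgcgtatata
NDE1: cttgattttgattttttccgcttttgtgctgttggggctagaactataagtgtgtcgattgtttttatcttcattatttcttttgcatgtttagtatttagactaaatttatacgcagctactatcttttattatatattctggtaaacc
The *NDE2* window holds 2 CCCCT matches and no CCAAT match, and the *NDE1* window holds neither, although *NDE1* has 2 CCAAT matches nearer to the start codon, at 102 and 9 bases before it, that the window does not hold whole. CCAAT is the core of the site of the Hap2/3/4/5 complex and CCCCT that of the stress factors Msn2 and Msn4, and a match is a run of letters, not a shown site.

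Complex II oxidizes succinate. *SDH4* (YDR178W), a membrane anchor subunit, had 531, 502 and 589.5 CPM in Htt103Q [V], against 738 and 804 CPM in Htt25Q [V], and 599.6, 598 and 603.5 CPM in Htt103Q [*SLX5*], against 856, 778 and 804 CPM in Htt25Q [*SLX5*]. The Htt103Q and Htt25Q libraries did not overlap. Its log2 fold changes were -0.51 ± 0.08 (adjusted p = 0.000299) and -0.44 ± 0.07 (adjusted p = 0.000502). *SDH1* (YKL148C), the flavoprotein that oxidizes succinate, had 1082, 1037 and 1115 CPM in Htt103Q [V], against 1039.9 and 932 CPM in Htt25Q [V] (log2 fold change 0.13, adjusted p = 0.204). *SDH2*, the iron-sulfur subunit, had 907, 907 and 941 CPM in Htt103Q [V], against 1016 and 993 CPM in Htt25Q [V] (log2 fold change -0.13, adjusted p = 0.181). *SDH3*, the other anchor, had 394, 389 and 403 CPM in Htt103Q [V], against 449 and 448 CPM in Htt25Q [V] (log2 fold change -0.18, adjusted p = 0.0814). Neither *SDH2* nor *SDH3* passed the test with either plasmid alone, although their groups with the vector did not overlap. Averaged over both plasmids, *SDH2* and *SDH3* were lower as well as *SDH4*, 3 of the 4 genes (35.1% of all genes were). With the plasmid *SDH3* gave -0.13 (adjusted p = 0.161), and it passed without Htt103Q [*SLX5*] clone c (-0.20, adjusted p = 0.0487).

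Complex III passes electrons from coenzyme Q to cytochrome c. The genes of its core proteins (*COR1*, *QCR2*), of cytochrome c1 (*CYT1*) and of the Rieske iron-sulfur protein (*RIP1*), with the small subunits *QCR6* and *QCR7*, gave log2 fold changes from -0.12 to 0.15 with the vector and from -0.09 to 0.11 with the plasmid, and none passed the test. *QCR7* (YDR529C) lay closest to 0, with 751, 750.4 and 754 CPM in Htt103Q [V], against 738 and 748 CPM in Htt25Q [V] (log2 fold change 0.02, adjusted p = 0.834). *CYT1* had 1128, 1079 and 1119.7 CPM in Htt103Q [V], against 1021 and 972 CPM in Htt25Q [V], and its value of 0.15 (adjusted p = 0.0719) passed with RLE size factors (0.17, adjusted p = 0.0475), with DESeq2's Wald test (0.17, adjusted p = 0.0161), with a mean of at least 10 CPM (0.19, adjusted p = 0.0428) and without Htt103Q [*SLX5*] clone b (0.17, adjusted p = 0.0469).

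The lower calls of complex III were its shortest genes, and they were seen with the vector only. *QCR9* (YGR183C) had 17.8, 19.6 and 23.8 CPM in Htt103Q [V], against 29.0 and 36.0 CPM in Htt25Q [V] (log2 fold change -0.67 ± 0.16, adjusted p = 0.00412), and 22.6, 24.6 and 29.0 CPM in Htt103Q [*SLX5*], against 30.0, 22.6 and 27.7 CPM in Htt25Q [*SLX5*] (-0.08, adjusted p = 0.667). *QCR8* had 79.0, 91.7 and 102 CPM in Htt103Q [V], against 123 and 121 CPM in Htt25Q [V] (-0.42 ± 0.11, adjusted p = 0.00787), and its value with the plasmid was -0.05. *QCR10* had 90.5, 102.8 and 110.8 CPM in Htt103Q [V], against 126 and 119 CPM in Htt25Q [V] (-0.27 ± 0.11, adjusted p = 0.0487). The *QCR9* call was lost without Htt25Q [V] clone b (adjusted p = 0.0633). That of *QCR10* was lost without either Htt25Q [V] clone (0.212 and 0.0968), Htt103Q [V] clone a (0.156) or clone b (0.0906), Htt25Q [*SLX5*] clone a (0.0655), or Htt103Q [*SLX5*] clone a (0.0617) or clone b (0.0603). It was lost as well with DESeq2 (0.0579), RLE size factors (0.0634), no filter (0.0501), a mean of at least 10 CPM (0.0605), only the groups compared (0.0767) and a replicate block (0.0508), and 5 of 20 alternatives with an adjusted p kept it. The difference between the 2 plasmids was tested as an interaction and passed for none of the 3, with unadjusted p of 0.0182 for *QCR9* and 0.0314 for *QCR8* and an adjusted p of 0.792 for both.

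Cytochrome c carries electrons from complex III to complex IV, and its isoforms are iso-1 (*CYC1*, YJR048W), the main aerobic form, and iso-2 (*CYC7*, YEL039C). *CYC1* had 744, 772.5 and 819.9 CPM in Htt103Q [V], against 1016 and 885 CPM in Htt25Q [V], and its fall of 0.29 on the log2 scale (SE 0.08, adjusted p = 0.0088) was lost without Htt25Q [V] clone a (-0.18, adjusted p = 0.131). With the plasmid it had 743, 831 and 799.6 CPM in Htt103Q, against 871, 869.6 and 883 CPM in Htt25Q (-0.14, adjusted p = 0.106). *CYC7* had 192.5, 201 and 253 CPM in Htt103Q [V], against 235 and 245 CPM in Htt25Q [V], and its groups overlapped (-0.16, adjusted p = 0.314). Without Htt103Q [V] clone c it passed (-0.27, adjusted p = 0.0492). The coding sequences of the pair are 76.4% identical over 330 aligned bases. They share an exact run of 35 bases, shown because it is the longest among the isoform pairs. It is shorter than the mean fragment lengths of 186.7 to 197.9 bases, and a division of reads between the isoforms was not tested.
CYC7 and CYC1, shared run: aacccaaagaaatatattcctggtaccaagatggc
The runs shared by the other isoform pairs were 8 to 12 bases long.

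Complex IV reduces oxygen. Its nuclear subunits held the largest change among the 44 genes. *COX26* (YDR119W-A), a small subunit found where complexes III and IV associate, had 6.80, 6.70 and 14.3 CPM in Htt103Q [V], against 38.7 and 42.5 CPM in Htt25Q [V], and 11.4, 13.3 and 14.0 CPM in Htt103Q [*SLX5*], against 34.9, 33.6 and 50.2 CPM in Htt25Q [*SLX5*]. The highest Htt103Q library lay below the lowest Htt25Q library, and Htt103Q [V] clone c was about level with the cells that carried *SLX5*. The log2 fold changes were -2.13 ± 0.28 (adjusted p = 0.000112) and -1.62 ± 0.25 (adjusted p = 0.00037). *COX26* is 201 bases long. Its fold change in a fit with RSEM's effective lengths, which adjusts for fragment length in each library, was -1.99 (adjusted p = 0.00027). Mean fragment lengths in Htt103Q [V] clones a, b and c were 187.6, 195.1 and 196.7 bases. The part of fragment length in the *COX26* values was not tested beyond that fit.

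*COX5B* (YIL111W), the isoform of subunit V used when oxygen is low, fell as well. It had 38.2, 48.0 and 67.3 CPM in Htt103Q [V], against 106 and 119.5 CPM in Htt25Q [V], and 63.2, 78.9 and 68.6 CPM in Htt103Q [*SLX5*], against 142, 124 and 125 CPM in Htt25Q [*SLX5*]. The log2 fold changes were -1.14 ± 0.18 (adjusted p = 0.000342) and -0.89 ± 0.16 (adjusted p = 0.000938), with no overlap between groups. *COX5A* (YNL052W), the aerobic isoform, gave the opposite sign: it had 1246, 1232 and 1096.5 CPM in Htt103Q [V], against 1109 and 956.5 CPM in Htt25Q [V] (0.21 ± 0.09, adjusted p = 0.0687), and 1074, 993 and 998 CPM in Htt103Q [*SLX5*], against 852, 812 and 913.5 CPM in Htt25Q [*SLX5*] (0.25 ± 0.08, adjusted p = 0.0206). The first value passed without Htt103Q [V] clone c (0.28, adjusted p = 0.0164) and without Htt25Q [V] clone a (0.32, adjusted p = 0.0381), with DESeq2 (0.23, adjusted p = 0.0328) and with a mean of at least 10 CPM (0.24, adjusted p = 0.0463). The second was lost without Htt25Q [*SLX5*] clone a (adjusted p = 0.0599) or clone b (0.0838), or Htt103Q [*SLX5*] clone a (0.0687).

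The promoters of this pair and of *COX26* are shown because these genes differed in size and direction within complex IV. They lie at chrIX:154972-155121 (plus strand, *COX5B*), chrXIV:531475-531624 (plus strand, *COX5A*) and chrIV:690764-690913 (plus strand, *COX26*) in R64, with CCAAT and CCCCT of either strand in capitals as before.
COX5B: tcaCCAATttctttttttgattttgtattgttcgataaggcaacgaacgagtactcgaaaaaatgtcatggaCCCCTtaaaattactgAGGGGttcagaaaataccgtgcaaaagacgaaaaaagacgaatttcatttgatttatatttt
COX5A: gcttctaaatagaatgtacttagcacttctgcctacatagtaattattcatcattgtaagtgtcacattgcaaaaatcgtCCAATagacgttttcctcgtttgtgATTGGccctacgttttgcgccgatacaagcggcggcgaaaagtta
COX26: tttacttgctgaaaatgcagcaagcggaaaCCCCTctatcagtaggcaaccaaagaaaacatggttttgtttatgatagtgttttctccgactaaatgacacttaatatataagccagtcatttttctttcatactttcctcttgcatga
The *COX5A* window holds 2 CCAAT matches and no CCCCT match, the *COX5B* window 1 CCAAT and 2 CCCCT matches, and the *COX26* window 1 CCCCT match alone.

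Of the other subunits of complex IV, *COX7*, *COX9* and *COX6* fell in both comparisons. *COX7* (YMR256C) had 8.24, 8.81 and 8.81 CPM in Htt103Q [V], against 15.0 and 18.0 CPM in Htt25Q [V], and 9.02, 7.54 and 7.95 CPM in Htt103Q [*SLX5*], against 14.7, 13.4 and 14.6 CPM in Htt25Q [*SLX5*], log2 fold changes of -0.94 ± 0.13 (adjusted p = 0.000134) and -0.80 ± 0.12 (adjusted p = 0.000243). *COX9* gave -0.56 ± 0.10 and -0.61 ± 0.09, and *COX6* -0.51 ± 0.09 and -0.37 ± 0.08. *COX8* passed with the vector (-0.44 ± 0.17, adjusted p = 0.0467, and -0.30, adjusted p = 0.123, with the plasmid), and its call was lost on leaving out any 1 of 8 libraries, Htt25Q [V] clone b, each of the Htt103Q [V] and Htt25Q [*SLX5*] clones, or Htt103Q [*SLX5*] clone a (adjusted p from 0.052 to 0.358). With the plasmid it passed without Htt103Q [*SLX5*] clone c (-0.52, adjusted p = 0.00747). *COX12*, a subunit at the intermembrane space, had 129, 133 and 126 CPM in Htt103Q [V], against 120.0 and 125 CPM in Htt25Q [V] (0.08, adjusted p = 0.332). With the plasmid it was higher (129.9, 123 and 129 CPM in Htt103Q, against 118, 107 and 110.4 CPM in Htt25Q, 0.19 ± 0.06, adjusted p = 0.0199), a call lost without Htt25Q [*SLX5*] clone b (0.0854) or c (0.0637) or Htt103Q [*SLX5*] clone a (0.0527). *COX4* and *COX13* lay between -0.10 and 0.07 in both comparisons. *COX13* had the largest p of the complex with the vector, with 481, 523 and 548 CPM in Htt103Q [V], against 537 and 543 CPM in Htt25Q [V] (-0.06, adjusted p = 0.482).

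**Figure D2:**
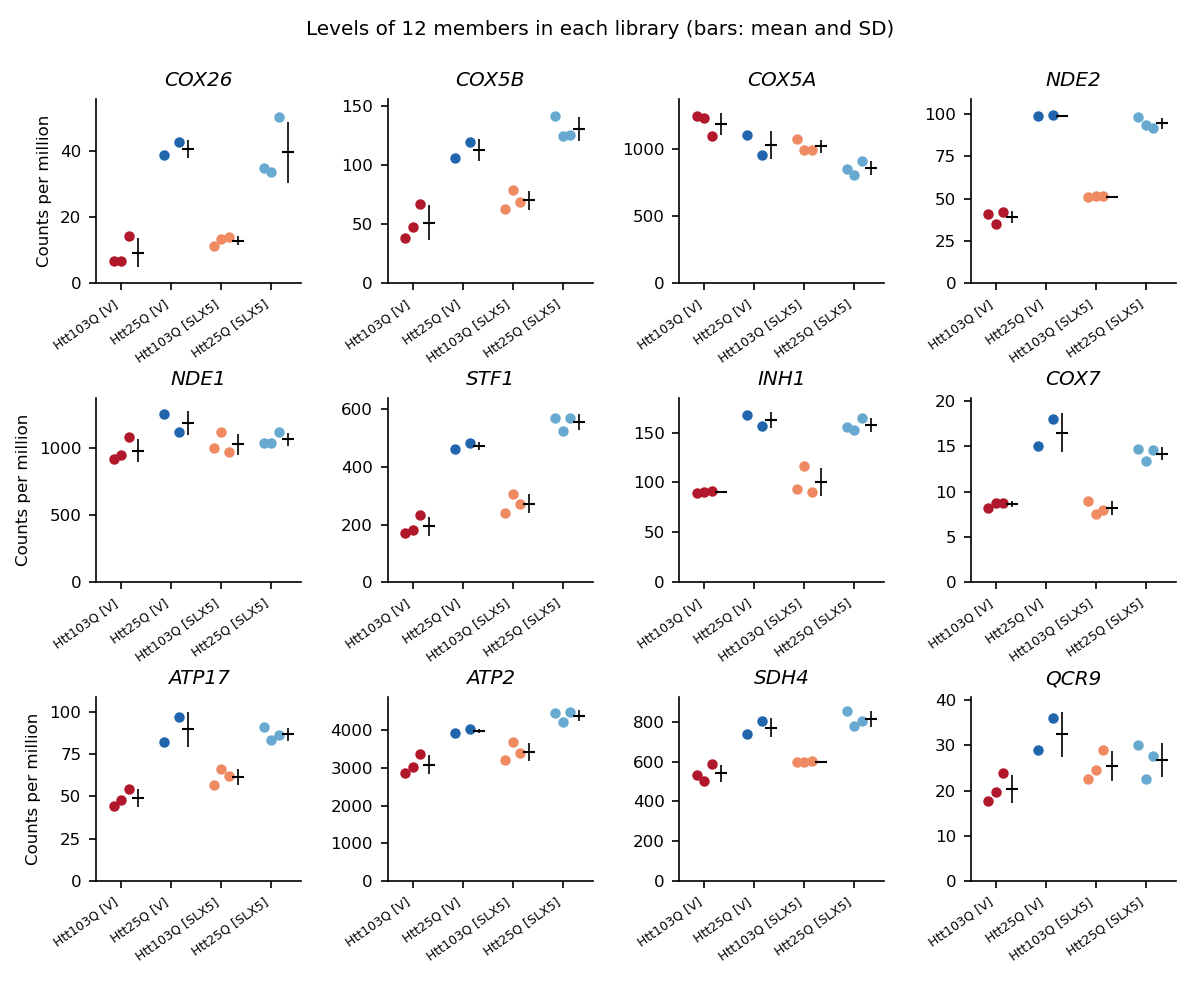
Level of 12 members in each library (CPM, y axis from 0), with mean and SD beside each group. The Htt103Q libraries of COX26, COX5B, NDE2, STF1, INH1 and COX7 lie below all Htt25Q libraries with either plasmid, COX5A shows the opposite order of group means, and QCR9 overlaps between Htt103Q [SLX5] and Htt25Q [SLX5].

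ATP synthase couples the proton gradient to ATP synthesis through the soluble F1 part and the membrane F0 part. In F1, the β subunit gene *ATP2* (YJR121W), which carries the catalytic sites, fell, while the genes of α (*ATP1*) and γ (*ATP3*) did not pass the test. *ATP2* had 2859.7, 3023 and 3372 CPM in Htt103Q [V], against 3934 and 4018 CPM in Htt25Q [V], and 3200.4, 3686 and 3388 CPM in Htt103Q [*SLX5*], against 4443, 4209 and 4479 CPM in Htt25Q [*SLX5*] (-0.37 ± 0.09, adjusted p = 0.00354, and -0.35 ± 0.08, adjusted p = 0.00259). *ATP1* had 955.5, 1024 and 1082 CPM in Htt103Q [V], against 1080.3 and 1138 CPM in Htt25Q [V] (-0.12, adjusted p = 0.202, and -0.16, adjusted p = 0.065, with the plasmid). Its value with the plasmid passed with DESeq2's Wald test (-0.15, adjusted p = 0.0483) and in the fit with effective lengths (-0.18, adjusted p = 0.0437). *ATP3* gave 0.07 and 0.09, and the genes of δ (*ATP16*) and ε (*ATP15*) gave -0.38 ± 0.09 (adjusted p = 0.0033) and -0.75 ± 0.23 (adjusted p = 0.0178) with the vector. The *ATP15* call was lost without Htt25Q [V] clone b (adjusted p = 0.29) or Htt103Q [V] clone a (0.0604). With the plasmid *ATP15* gave -0.45 (adjusted p = 0.0919) and passed without Htt103Q [*SLX5*] clone c (-0.68, adjusted p = 0.0205). *ATP16* gave -0.21 (adjusted p = 0.0399) with the plasmid and lost that call on leaving out any 1 of 8 libraries, both Htt25Q [V] clones, Htt103Q [V] clone b, each Htt103Q [*SLX5*] clone, or Htt25Q [*SLX5*] clone a or c (adjusted p from 0.0522 to 0.129), and with a replicate block (0.0518).

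Of the stalk and membrane subunits, 6 fell. *ATP17* (YDR377W, subunit f) had 44.3, 48.0 and 54.6 CPM in Htt103Q [V], against 82.4 and 97.0 CPM in Htt25Q [V], and 56.6, 66.1 and 62.1 CPM in Htt103Q [*SLX5*], against 90.8, 83.1 and 86.1 CPM in Htt25Q [*SLX5*]. Its groups did not overlap, and the log2 fold changes were -0.87 ± 0.10 (adjusted p = 7.4e-05) and -0.49 ± 0.09 (adjusted p = 0.0011). *ATP14* (subunit h) had 323, 337 and 316 CPM in Htt103Q [V], against 442 and 424 CPM in Htt25Q [V] (-0.41 ± 0.07, adjusted p = 0.000624), and *ATP7* (subunit d) had 503, 559 and 602 CPM, against 734.5 and 755 CPM (-0.42 ± 0.08, adjusted p = 0.00112). *TIM11* (subunit e, which joins synthase dimers) gave -0.37 ± 0.07 and -0.39 ± 0.07, *ATP18* -0.70 ± 0.25 and -0.72 ± 0.23, and *ATP19* -0.38 ± 0.10 and -0.36 ± 0.09. Without Htt25Q [V] clone b the calls of *ATP18* (-0.40, adjusted p = 0.316) and *ATP19* (-0.35, adjusted p = 0.0591) were lost, and without Htt103Q [V] clone a or clone c that of *ATP18* (0.0938 and 0.0511). With the plasmid the *ATP18* call was lost without Htt25Q [*SLX5*] clone a (-0.56, adjusted p = 0.0815) or Htt103Q [*SLX5*] clone a (-0.55, adjusted p = 0.0858) or clone b (-0.61, adjusted p = 0.0676). That of *ATP7* (-0.25, adjusted p = 0.0145) was lost without Htt25Q [*SLX5*] clone a (-0.21, adjusted p = 0.065).

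*ATP4* (YPL078C, subunit b), with the largest p of the complex, had 457, 481 and 507 CPM in Htt103Q [V], against 480.4 and 482 CPM in Htt25Q [V] (0.00 ± 0.08, adjusted p = 0.99). With the plasmid *ATP4* gave 0.15 (adjusted p = 0.1) and passed without Htt103Q [*SLX5*] clone b (0.22, adjusted p = 0.0234). *ATP5*, the subunit that links F1 to the stalk, gave -0.14 (adjusted p = 0.11). *ATP20* (YPR020W, subunit g, the partner of subunit e in dimers) had fold changes of opposite sign with the 2 plasmids. It had 23.3, 29.5 and 34.2 CPM in Htt103Q [V], against 31.3 and 36.3 CPM in Htt25Q [V] (-0.22, adjusted p = 0.207, and -0.34, adjusted p = 0.0421, without Htt103Q [V] clone c), and 39.8, 33.9 and 32.1 CPM in Htt103Q [*SLX5*], against 27.0, 25.9 and 26.2 CPM in Htt25Q [*SLX5*] (0.42 ± 0.13, adjusted p = 0.017). The higher call was lost without Htt103Q [*SLX5*] clone a (0.33, adjusted p = 0.0672). The difference between these effects was 0.64 ± 0.19 with an unadjusted p of 0.00632, and did not pass after adjustment over all genes (0.792).

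The inhibitors, which block ATP hydrolysis by F1 when the gradient fails, both fell, and their median was the lowest of the 7 groups of genes. *STF1* (YDL130W-A) had 169.6, 180.0 and 232 CPM in Htt103Q [V], against 463 and 483 CPM in Htt25Q [V], and 242, 305 and 272 CPM in Htt103Q [*SLX5*], against 571, 524 and 571 CPM in Htt25Q [*SLX5*]. Its log2 fold changes were -1.29 ± 0.13 (adjusted p = 2.85e-05) and -1.02 ± 0.12 (adjusted p = 6.03e-05). *INH1* (YDL181W) had 89.9, 90.2 and 91.7 CPM in Htt103Q [V], against 168 and 157 CPM in Htt25Q [V], and 93.6, 117 and 90.7 CPM in Htt103Q [*SLX5*], against 156, 152 and 165 CPM in Htt25Q [*SLX5*] (-0.84 ± 0.10, adjusted p = 7.11e-05, and -0.65 ± 0.09, adjusted p = 0.000171). For both genes every Htt103Q library lay below every Htt25Q library. Their windows at chrIV:228921-229070 (plus strand, *STF1*) and chrIV:134929-135078 (plus strand, *INH1*) in R64 are shown because the inhibitors fell together.
STF1: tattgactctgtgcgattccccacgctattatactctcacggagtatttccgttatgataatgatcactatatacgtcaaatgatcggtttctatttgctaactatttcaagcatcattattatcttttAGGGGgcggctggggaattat
INH1: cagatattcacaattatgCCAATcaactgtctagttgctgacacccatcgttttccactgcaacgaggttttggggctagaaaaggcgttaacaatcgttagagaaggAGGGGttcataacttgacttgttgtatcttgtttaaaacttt
The *STF1* window holds 1 CCCCT match and the *INH1* window 1 match of each motif.

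Over all 44 genes, 35 had CCAAT within 250 bases before the start codon (79.5%, beside 35.4% of 5993 nuclear promoters) and 20 had CCCCT (45.5%, beside 18.8%). Of the 20 members with CCCCT, 14 were lower between Htt103Q [V] and Htt25Q [V], and of the 24 without it 10 were. Over all genes tested, 37.3% of those with CCCCT and 29.2% of those without were lower. With the *SLX5* plasmid the counts were 10 of 20 and 7 of 24, beside 34.1% and 26.1%. For CCAAT the counts with the vector were 20 of 35 with the motif and 4 of 9 without, beside 32.0% and 30.1% of all genes. These counts are descriptions, and no test was made.

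The fold changes also ran with coding length. Of the 14 members under 300 bases, 13 were lower between Htt103Q [V] and Htt25Q [V] (92.9%), beside 38.9% of the 234 genes tested of that length. Of the 16 members from 300 to under 600 bases 8 were lower (29.0% of all such genes), of the 7 from 600 to under 1200 bases 0 were (33.6%), and of the 7 longer ones 3 were (26.5%). With the *SLX5* plasmid 8 of the 14 shortest members were lower (57.1%, beside 41.5%). In the longer bins 7 of 16 (beside 25.6%), 0 of 7 (beside 30.4%) and 2 of 7 (beside 23.6%) were lower. The Spearman correlation of log2 fold change with length was 0.54 over the 44 genes and 0.11 over all genes with the vector, and 0.41 and 0.12 with the plasmid. These are descriptions, since all points share the same libraries. Fragment lengths moved with this pattern, being longer in 5 of the 6 libraries of Htt103Q. A fit with RSEM's effective lengths as offsets, added after the data were seen, called 20 of 44 lower with the vector (45.5%, beside 29.3% of all genes). With the plasmid it called 15 lower (34.1%, beside 26.7% of all genes) and 3 higher (6.82%, beside 26.2%). In that fit the 14 short members gave 9 lower calls with the vector (64.3%, beside 32.5% of all genes of that length). Their median was -0.46, beside -0.26 over all genes of that length, where the main fit gave -0.62 and -0.35. With the plasmid the 14 gave 6 lower calls (42.9%, beside 29.5%) and 1 higher (7.14%, beside 10.7%). Their median was then -0.23, beside -0.18, where the main fit gave -0.42 and -0.37. *QCR10*, *COX8*, *ATP18* and *ATP19* no longer passed with the vector, and *ATP16*, *ATP18* and *ATP19* with the plasmid. *ATP1* gained a lower call with the plasmid in that fit (-0.18, adjusted p = 0.0437). Beyond that fit, the part of fragment length in the values was not tested.

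**Figure D3:**
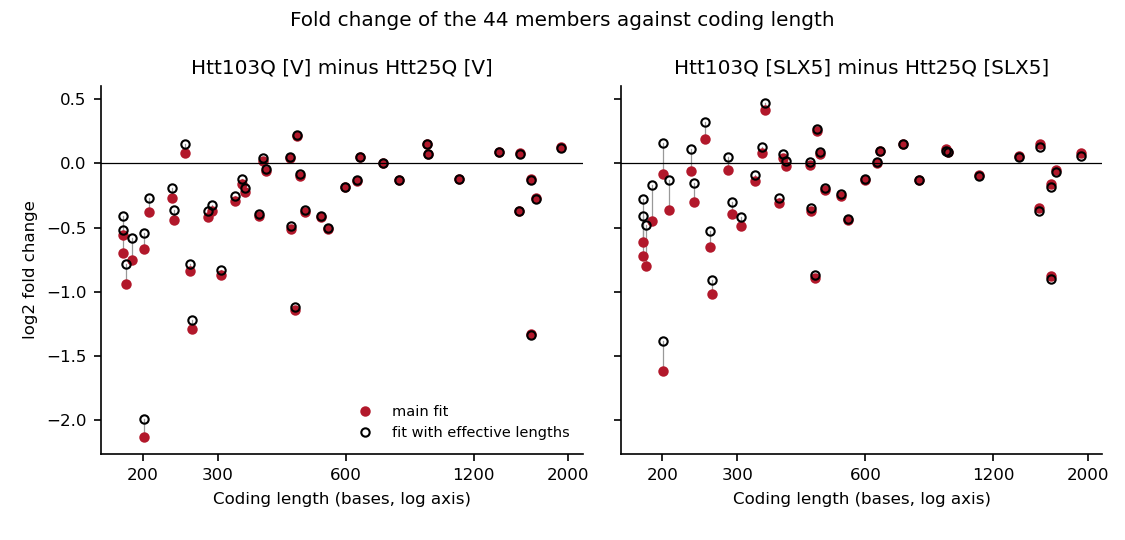
Log2 fold change of the 44 genes (y axis) against coding length in bases (x axis, log scale), with the vector (left) and with the SLX5 plasmid (right). Red points are the main fit and open circles the fit with effective lengths, which lie above the red points for the shortest genes and on top of them beyond about 600 bases. The open circle of COX26 lies at -1.99 in the left panel, above its red point at -2.13.

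A core of genes was lower in every alternative run. Over 21 alternatives of test, scaling, filter and libraries, 13 of the 24 calls with the vector were kept in every one, namely *NDE2*, *SDH4*, *COX5B*, *COX6*, *COX7*, *COX9*, *COX26*, *ATP7*, *ATP14*, *ATP17*, *TIM11*, *INH1* and *STF1*. With the plasmid 12 of 17 were kept, the same genes without *ATP7* and *ATP14* and with *ATP2*. None of the 3 higher calls with the plasmid was kept in every alternative. How many calls over all genes were kept in every alternative was not counted, so the core is not set against a background.

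The ratio of the isoforms of a pair within a library does not depend on the scaling of that library. The pairs compared were *NDE2* over *NDE1*, *CYC7* over *CYC1*, *COX5B* over *COX5A* and *STF1* over *INH1*, each tested for Htt length and for the plasmid by an exact two-sided permutation of libraries within strata. This made 8 tests of 200 arrangements each, whose smallest possible p was 0.005, with p-values adjusted over the 8. The ratio of *NDE2* to *NDE1* TPM was 4.60%, 3.84% and 3.99% in Htt103Q [V], against 8.13% and 9.11% in Htt25Q [V], and 5.24%, 4.74% and 5.49% in Htt103Q [*SLX5*], against 9.78%, 9.25% and 8.44% in Htt25Q [*SLX5*]. The difference of log2 ratios was -0.94 (exact p = 0.005, adjusted p = 0.0133), and all 6 libraries of Htt103Q lay below all of Htt25Q.

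*COX5B* also took a lower share within subunit V. The ratio of *COX5B* to *COX5A* was 3.14%, 3.99% and 6.27% in Htt103Q [V], against 9.77% and 12.8% in Htt25Q [V], and 6.02%, 8.13% and 7.03% in Htt103Q [*SLX5*], against 17.0%, 15.7% and 14.0% in Htt25Q [*SLX5*]. The difference of log2 ratios was -1.26 (exact p = 0.005, adjusted p = 0.0133). *STF1* over *INH1* was 183%, 193% and 245% in Htt103Q [V], against 267% and 298% in Htt25Q [V], and 249%, 252% and 291% in Htt103Q [*SLX5*], against 355%, 334% and 336% in Htt25Q [*SLX5*], a difference of -0.42 (exact p = 0.01, adjusted p = 0.02). *CYC7* over *CYC1* was 24.0% to 28.4% in Htt103Q [V], against 21.4% and 25.7% in Htt25Q [V], and 23.1% to 31.5% in Htt103Q [*SLX5*], against 20.9% to 24.9% in Htt25Q [*SLX5*], with no difference past the threshold (0.17, exact p = 0.12, adjusted p = 0.137).

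Of the 4 ratios, 3 also differed by plasmid. With *SLX5* the log2 ratio of *COX5B* to *COX5A* was higher by 0.59 (exact p = 0.015, adjusted p = 0.024), being 0.71 higher in Htt103Q and 0.47 in Htt25Q. That of *STF1* to *INH1* was higher by 0.32 (exact p = 0.005, adjusted p = 0.0133; 0.36 in Htt103Q and 0.27 in Htt25Q), and that of *NDE2* to *NDE1* by 0.20 (exact p = 0.035, adjusted p = 0.0467; 0.32 in Htt103Q and 0.09 in Htt25Q). That of *CYC7* to *CYC1* gave 0.05 (exact p = 0.635, adjusted p = 0.635). The 3 that passed kept their direction on leaving out each library, with differences of 0.48 to 0.73 for *COX5B* over *COX5A*, 0.28 to 0.38 for *STF1* over *INH1* and 0.16 to 0.24 for *NDE2* over *NDE1*. Their highest adjusted p were then 0.064, 0.06 and 0.133, with fewer arrangements. For *COX5B* over *COX5A* the call was lost without Htt25Q [V] clone a, Htt103Q [*SLX5*] clone b or c, or Htt25Q [*SLX5*] clone a or b, for *STF1* over *INH1* without Htt103Q [*SLX5*] clone b or c, and for *NDE2* over *NDE1* without any library but Htt25Q [V] clone b and Htt25Q [*SLX5*] clone c.

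**Figure D4:**
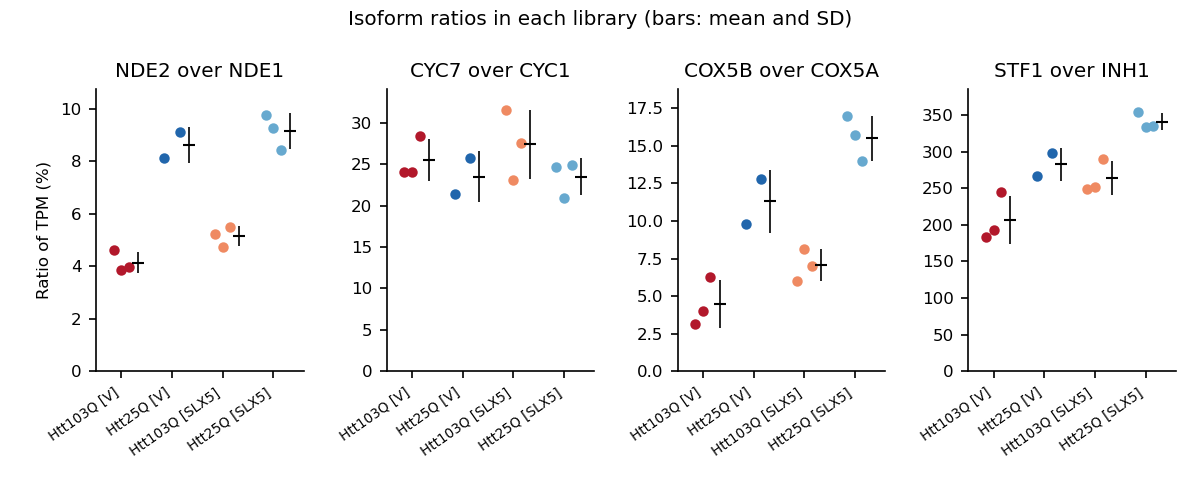
TPM of one isoform as a percentage of the other in each library (y axis from 0), with mean and SD beside each group. NDE2 over NDE1 and COX5B over COX5A lie lower in all Htt103Q libraries than in all Htt25Q libraries, STF1 over INH1 is lower in Htt103Q than in Htt25Q with the same plasmid, and CYC7 over CYC1 overlaps.

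For single genes, *SLX5* on a plasmid gave no call among the 44. Between Htt103Q [*SLX5*] and Htt103Q [V], 0 members passed edgeR's quasi-likelihood test (0.0158% of all genes did) and 8 had an unadjusted p under 0.05, of 1468 genes. Between Htt25Q [*SLX5*] and Htt25Q [V] the count was 0 (0.0475% of all genes) with 2 members and 565 genes at an unadjusted p under 0.05, and averaged over both Htt lengths 0 (0.221%) with 5 members and 1536 genes. The difference of the plasmid effect between Htt103Q and Htt25Q passed for 0 members and 0.0% of all genes, with 5 members and 348 genes at an unadjusted p under 0.05. In Htt103Q cells the smallest p of edgeR's quasi-likelihood test belonged to *NDE2* (0.38 ± 0.07, adjusted p = 0.113), *STF1* (0.49 ± 0.11, adjusted p = 0.119) and *ATP17* (0.33 ± 0.09, adjusted p = 0.145). In Htt25Q cells it belonged to *COX5A* (-0.27 ± 0.09, adjusted p = 0.466), *ATP20* (-0.36 ± 0.14, adjusted p = 0.503) and *COX12* (-0.13 ± 0.07, adjusted p = 0.594).

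These values rest on 1 library and on the test. Without Htt103Q [V] clone c, 10 members passed in Htt103Q cells (22.7%, beside 26.1% of all genes), of which 9 were higher with *SLX5*, namely *NDE2*, *SDH4*, *QCR8*, *COX5B*, *COX26*, *ATP2*, *ATP17*, *ATP20* and *STF1*, and *COX5A* was lower. DESeq2's Wald test called *NDE2*, *STF1* and *ATP17* higher with all libraries, beside 5.52% of the genes to which it gave an adjusted p, and so did edgeR's likelihood ratio tests within the genes that passed such a test over the 4 groups, beside 7.26%. The Htt103Q [V] libraries enter both this comparison and that with Htt25Q [V], so the values stand side by side only. *NDE2* gave -1.33 between Htt103Q [V] and Htt25Q [V] and 0.38 between Htt103Q [*SLX5*] and Htt103Q [V], *STF1* -1.29 and 0.49, *ATP17* -0.87 and 0.33, *COX26* -2.13 and 0.48, and *COX5B* -1.14 and 0.46.

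Summed over a complex, levels differed by at most 0.18 on the log2 scale in TPM except for the inhibitors. In summed TPM, the inhibitors had 2025, 2233 and 2782 in Htt103Q [V], against 4589 and 4591 in Htt25Q [V], and 2985, 3505 and 2994 in Htt103Q [*SLX5*], against 5049, 4849.7 and 5288 in Htt25Q [*SLX5*], differences of the mean log2 sums of -0.98 and -0.68. ATP synthase summed to 12856, 14818 and 15107 in Htt103Q [V], against 15745 and 16346 in Htt25Q [V] (-0.17, and -0.04 with the plasmid). Complex III summed to 13021, 13386 and 14155 in Htt103Q [V], against 12613 and 12541 in Htt25Q [V] (0.10, and 0.18 with the plasmid). The sums of the NADH dehydrogenases (0.02 and 0.17), complex II (-0.12 and -0.08), cytochrome c (-0.11 and 0.09) and complex IV (-0.08 and 0.04) gave values between these, and in summed CPM the first value of the NADH dehydrogenases and the second of cytochrome c turned to -0.10 and -0.10. The summed CPM of ATP synthase gave differences of -0.26 and -0.21, and every Htt103Q library (7433 to 8756 CPM) lay below every Htt25Q library (9361 to 10185 CPM). For complex III the CPM gave 0.02 with either plasmid. The sums are set by their most abundant members, so that *COX26* and *COX5B* weigh little in that of complex IV.

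**Figure D5:**
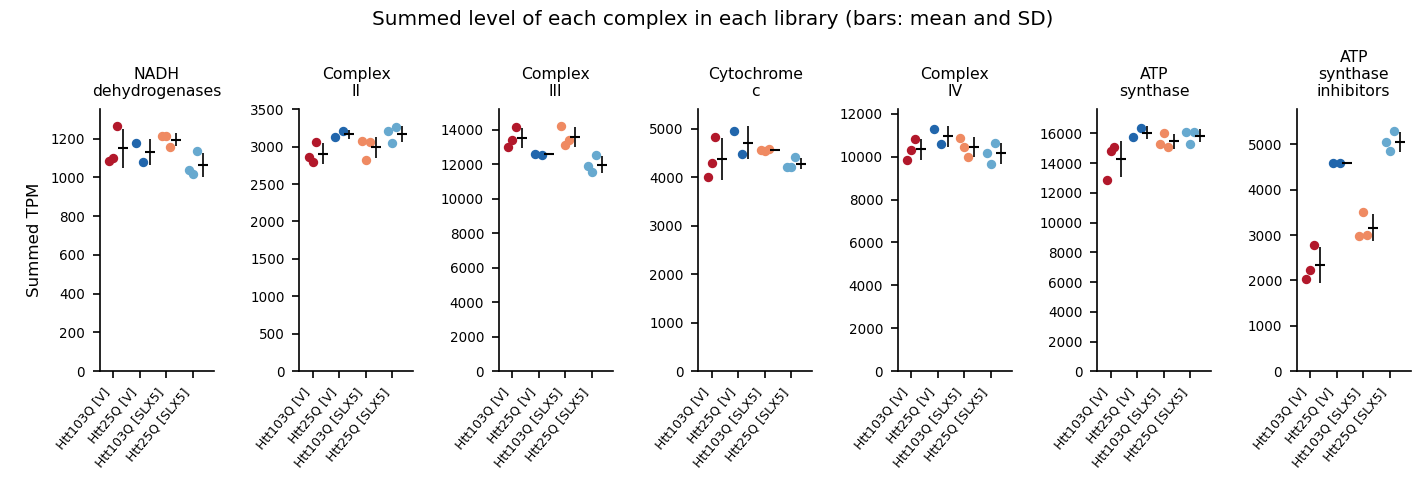
Summed TPM of each complex in each library (y axes from 0, one scale per complex), with mean and SD beside each group. The inhibitors (2025 to 2782 in Htt103Q [V], 4589 and 4591 in Htt25Q [V]) show every Htt103Q library below every Htt25Q library, while the sums of cytochrome c and complex IV overlap between the groups.

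Genes that build or supply the chain were described from lists of the same pathways, beside shares over all genes of 29.5% lower and 27.3% higher with the vector and 26.6% and 26.9% with the plasmid. Of 27 assembly factors of complex IV, 22 were lower and 3 higher between Htt103Q [V] and Htt25Q [V], with a median of -0.50, and the counts with the plasmid were again 22 and 3, with a median of -0.44. *COA2* (YPL189C-A), needed for assembly of the oxidase, gave -1.14 ± 0.13 (adjusted p = 5.83e-05), *PET191* -0.65 ± 0.08 (adjusted p = 0.000108), and *PET309* (YLR067C), a factor for *COX1* mRNA, was higher by 0.52 ± 0.07 (adjusted p = 0.0001). Of 10 genes of coenzyme Q synthesis 7 were lower and 0 higher (median -0.32), among them *COQ7* (-0.87 ± 0.11, adjusted p = 8.43e-05), *COQ10* (-0.68 ± 0.13, adjusted p = 0.0013) and *COQ4* (-0.53 ± 0.11, adjusted p = 0.00186). With the plasmid 6 were lower and 0 higher (median -0.23), and *COQ10* did not pass (-0.24, adjusted p = 0.111).

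Of 7 assembly factors and paralogs of complex II, 6 were lower and 1 higher (median -0.52). The higher one was YJL045W, a paralog of *SDH1*, with 50.9, 41.6 and 26.4 CPM in Htt103Q [V], against 6.09 and 6.07 CPM in Htt25Q [V], and 39.1, 15.7 and 33.5 CPM in Htt103Q [*SLX5*], against 9.91, 7.75 and 8.52 CPM in Htt25Q [*SLX5*]. No library of Htt103Q overlapped with Htt25Q, and the log2 fold change was 2.70 ± 0.38 (adjusted p = 0.000172). Reads of stretches shared by YJL045W and *SDH1* may be divided between them, which was not tested. Their lowest and highest estimated counts were whole numbers (119 and 1234 for YJL045W, 20327 and 26865 for *SDH1*), but such extremes alone do not show how shared reads were assigned. *SDH8* (-0.65 ± 0.08, adjusted p = 9.19e-05) and *SDH7* (-0.52 ± 0.09, adjusted p = 0.000459), both assembly factors, were lower. Of 10 assembly factors of complex III, 2 were lower and 1 higher (median -0.06), and of 12 of ATP synthase 1 was lower and 2 higher (median -0.02), shares below those of all genes (29.5% and 27.3%). Named by the smallest p, those were *CBP6* (-0.68 ± 0.17, adjusted p = 0.00563), *CBP3* (-0.29 ± 0.11, adjusted p = 0.0347) and *CBP1* (0.20 ± 0.07, adjusted p = 0.0339) for complex III, and *INA17* (-0.95 ± 0.11, adjusted p = 6.14e-05), *AEP2* (0.62 ± 0.06, adjusted p = 2.99e-05) and *ATP11* (0.32 ± 0.06, adjusted p = 0.000947) for ATP synthase. With the plasmid 6 were lower and 1 higher for complex II, 0 and 1 for complex III, and 1 and 3 for ATP synthase. *CBP6* (-0.34, adjusted p = 0.0861) and *CBP3* (-0.10, adjusted p = 0.372) did not pass there.

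Among 6 genes of transcription factors, those of the Hap complex moved in different directions. *HAP3* had 77.0, 69.8 and 56.6 CPM in Htt103Q [V], against 47.4 and 47.6 CPM in Htt25Q [V] (0.51 ± 0.11, adjusted p = 0.00226), while *HAP5* gave -0.43 ± 0.09 (adjusted p = 0.00247). *HAP4*, the regulated subunit of the complex, had 282, 305 and 377 CPM in Htt103Q [V], against 317 and 332 CPM in Htt25Q [V], and the groups overlapped (-0.01, adjusted p = 0.924). *HAP1*, the heme-dependent activator, gave -0.50 ± 0.09 (adjusted p = 0.000579) and *ROX1*, the repressor of hypoxic genes, -0.37 ± 0.11 (adjusted p = 0.0145). Of 8 genes of heme synthesis 1 was lower, *HEM15* (-0.82 ± 0.20, adjusted p = 0.00417), and 2 were higher, *HEM13* (0.87 ± 0.09, adjusted p = 4.25e-05) and *HEM3* (0.45 ± 0.09, adjusted p = 0.0018), beside 29.5% and 27.3% of all genes. *HEM13* is known as a hypoxic gene repressed by Rox1, while *COX5B*, the isoform used when oxygen is low, gave -1.14 in the same comparison. Any part of Rox1 in these values was not tested. Of the 7 subunits encoded in mitochondrial DNA only *COX1* passed the filter on low counts, with 0 to 25 estimated counts per library (log2 fold change -0.77, adjusted p = 0.659).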

How the data were processed

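Total RNA of 11 cultures was sequenced on an Illumina instrument with a stranded TruSeq kit; the labels and the methods name different kits, and the strand setting of the counts is not given in the sources used here. According to the methods and the submitters' processing notes, the authors used bcl2fastq 2.17, Trimmomatic 0.36, STAR 2.5.1 against the S288C assembly EF4, and RSEM 1.2.22. The deposited values are RSEM's expected counts and TPM (scaled by effective length) of the authors for 7126 genes; their FPKM were also deposited and not used. Of the expected counts 16.5% are not whole. One Htt25Q [V] library that the authors removed was not analysed here.

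Expected counts were rounded, filtered with filterByExpr (6321 genes kept), scaled by TMM and fitted in 1 model of 4 groups with edgeR 4.0.16 (limma 3.58.1, R 4.3.3). Contrasts of the groups went through glmQLFTest, and a gene was called at a Benjamini-Hochberg adjusted p under 0.05 over all 6321 genes. Standard errors were obtained as the fold change on the log2 scale over the root of the F statistic. Where replicates come from 1 strain, p-values measure the spread between those replicates. The common dispersion was 0.0121, a biological coefficient of variation of 11%, and totals were 19942070 to 29440801 counts. CPM are TMM-scaled. Isoform ratios are of the deposited TPM. Other steps ran in Python 3.11.15 (numpy 2.4.6, pandas 2.3.3, matplotlib 3.10.9). The fit and the permutation were tested on simulated data.

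Sequences and positions come from RefSeq R64; 6003 of 6013 genes matched by systematic name have the coding length that the files give (99.8%), all 44 members among them. No member overlaps another RefSeq gene.

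Alternatives were DESeq2 1.42.0, RLE size factors, no filter, a mean of at least 10 CPM, unrounded counts, edgeR's likelihood ratio tests within the genes passing such a test over the 4 groups (the methods state 2 such steps but name no likelihood ratio test), only the groups compared, a replicate block, an adjusted p under 0.01, leaving out each library, and leaving out the 4 libraries of clone letter a. Ratios were also taken on expected counts, with 1 TPM added and with a replicate block, and sums in CPM. Effective lengths as offsets were added after the data were seen. Members and lists were chosen with earlier results of these data known. All 44 genes are accounted for; values per library are given for the isoform pairs, for up to 3 members of each complex with the smallest p and the 1 with the largest p between Htt103Q [V] and Htt25Q [V], for members called against most of their complex, and for the smallest p in the *SLX5* comparisons, and other genes with such values were chosen after they were seen. Of each list up to 3 genes with the smallest p are named.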

Additional observations from a re-analysis of the deposited data

How the results depend on the processing

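Of the calls between Htt103Q and Htt25Q, the count of 20 with the *SLX5* plasmid moved by over 1.5 times under 1 setting, to 13 (12 lower, 1 higher) without the 4 libraries of clone letter a. Leaving out single libraries gave 18 to 25 calls with the vector, 15 to 22 with the plasmid and 23 to 30 averaged over both. In the *SLX5* comparison of Htt103Q cells, DESeq2's Wald test and the 2-step likelihood ratio tests gave 3 calls each, and leaving out 1 library 0 to 10; averaged over both Htt lengths these gave 2, 2 and 0 to 7. In Htt25Q cells and for the difference of the plasmid effects, every alternative gave 0. No source says that letters a, b and c mark a shared day or batch, and not every same-lettered pair of libraries deviated together: correlations ran from -0.145 to 0.21, with 4 of the 6 pairs of letter a above 0.1, and the letter-a libraries had the 4 highest ribosomal RNA shares. They were not treated as pairs. Without letter a the vector comparison kept 1 Htt25Q [V] library, so its calls are not given. There *NDE1*, *QCR10* and *CYC1* gave -0.15 each, beside -0.27, -0.27 and -0.29 in the main fit. *QCR8* gave -0.32, beside -0.42, and *COX8* -0.54, beside -0.44. *ATP2*, *ATP16* and *ATP19* gave -0.33, -0.36 and -0.37, beside -0.37, -0.38 and -0.38. With a replicate block *QCR10* (vector) and *ATP16* (plasmid) lost their calls, and the counts were 23 with the vector, 19 with the plasmid, 29 averaged and 0 in each *SLX5* comparison. For the ratios, sign flips of letter pairs as a replicate block gave differences for Htt length of -0.93 (*NDE2* over *NDE1*), -1.40 (*COX5B* over *COX5A*) and -0.48 (*STF1* over *INH1*), and for the plasmid of 0.23, 0.63 and 0.32, all with an adjusted p of 0.0833. Without clone letter a the same pairs gave -1.01, -1.16 and -0.38 (adjusted p 0.148, 0.148 and 0.178) and 0.17, 0.40 and 0.24 (0.296, 0.178 and 0.148), and *CYC7* over *CYC1* gave -0.11 by plasmid, with fewer arrangements in both cases. Leaving out single libraries gave, for Htt length, -0.99 to -0.90, -1.40 to -1.15, -0.48 to -0.38 and, for *CYC7* over *CYC1*, 0.10 to 0.23; for the plasmid they gave 0.16 to 0.24, 0.48 to 0.73, 0.28 to 0.38 and -0.02 to 0.11. In summed CPM in place of TPM, the differences between Htt103Q and Htt25Q with the vector were -0.10 for the NADH dehydrogenases, 0.02 for complex III, -0.26 for cytochrome c, -0.26 for ATP synthase and -1.17 for the inhibitors, and with the plasmid 0.04, 0.02, -0.10, -0.21 and -0.94. Among single members' fold changes under all settings 1729 kept direction and side of the threshold, 79 lost and 16 gained a call, 24 moved and none reversed. The cause of these differences was not tested. Short members limit precision: *COX7*, at 168 to 425 estimated counts, and *COX26*, at 143 to 1266, had the fewest.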
